A study of Homo sapiens with 12 samples.

Results

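The genes described here are 31 established targets of the transcription factor p53, listed by symbol and without CDKN1A. Each symbol matched 1 row of the deposited expression table by its Ensembl gene identifier, so the 31 genes stand among 63568 gene rows in all, and all 31 passed the filter on low values (at least 1 TPM in at least 2 libraries). The measurements are RNA-seq levels in TPM, a unit that corrects for gene length and library total, from LNCaP, an established human prostate cancer line. Cells received a non-targeting siRNA pool (si-NT) or 1 of 2 single siRNAs against SMARCA4, the gene of the SWI/SNF chromatin remodelling ATPase BRG1, and were collected at 72 h or at 144 h. Each combination of siRNA and time has 2 libraries, 12 in total. At 72 h the cells meant for 144 h were split and transfected again with the same kind of siRNA, so the 144 h groups differ from the 72 h groups in time and in a further transfection. A single cell line was used, all groups including si-NT were transfected, and the labels do not say whether paired libraries came from separate cultures, so the tests measure the spread between these libraries only.

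The table numbers the SMARCA4 siRNAs 2 and 3, and these numbers are used throughout. The sample labels number them 1 and 2, and 1 library at 72 h has labels that disagree on the number, so no link between the numberings is made. The question put to the p53 targets was how each SMARCA4 siRNA compared with si-NT, and how the siRNAs compared with each other, at each time.

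The p53 protein is held at low levels in unstressed cells by MDM2, itself a p53 target, and builds up after DNA damage or other stress. It then binds response elements near its targets and raises their transcription, which can halt the cell cycle, support DNA repair, change metabolism or start cell death. CDKN1A, which encodes the cell cycle inhibitor p21, is the best known target.

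The response element is the sequence through which p53 acts, and the sites found next to the transcription starts are shown here as background. Each of their genes measured higher with siRNA 3 than with siRNA 2 at both times, as did 24 of all 31 genes (24.4% of all genes tested). A role of p53 in this difference was not tested. A p53 element consists of a pair of 10-letter half-sites, each with a C at position 4 and a G at position 7. The 250 bases before each RefSeq start (GRCh38.p14) were searched for adjacent half-sites that kept these letters and had at most 3 mismatches to the p53 response element consensus. The consensus is its own reverse complement, so 1 pass reads both strands. Promoter windows were found for 25 of the 31 genes, 38 windows in all, and 6 of the 25 genes held such a site (24.0%), against 1.12% of all 27305 genes with a window. In windows, 7 of 38 held a site, against 0.914% of all 35116 windows. The genes were listed as p53 targets in the first place, so this is a description of them, and a match is neither a measured binding site nor a cause. Capitals mark the 20-letter match, and lower case the flanking bases, read 5′ to 3′ on the strand of the gene.
MDM2: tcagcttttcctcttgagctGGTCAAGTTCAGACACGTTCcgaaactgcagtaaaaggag
AEN: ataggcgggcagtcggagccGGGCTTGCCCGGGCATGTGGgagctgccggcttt
FAS: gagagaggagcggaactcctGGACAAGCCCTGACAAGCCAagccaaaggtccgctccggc
SESN1: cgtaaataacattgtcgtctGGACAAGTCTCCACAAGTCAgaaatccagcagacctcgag
RPS27L: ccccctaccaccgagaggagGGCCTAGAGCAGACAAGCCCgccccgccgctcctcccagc
FDXR: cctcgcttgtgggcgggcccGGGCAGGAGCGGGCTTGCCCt

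The MDM2 stretch lies at chr12:68808903-68808962 on the plus strand and has 2 mismatches, as do those of AEN (chr15:88621286-88621339, plus) and FAS (chr10:88991289-88991348, plus). The stretches of SESN1 (chr6:109008998-109009057, minus), RPS27L (chr15:63157507-63157566, minus) and FDXR (chr17:74872995-74873035, minus) have 3 mismatches each. The FDXR match ends 1 base before the start and the AEN match 14 bases before it, while the FAS match ends 102 bases before it. For the 6 genes with a site, the log2 difference between siRNA 3 and siRNA 2 at 72 h ranged from 0.55 to 1.06 with a median of 0.93. The other 19 genes with a window ranged from -0.25 to 0.88 with a median of 0.38. At 144 h the medians were 0.67 and 0.10, and the range with a site (0.50 to 0.76) lay inside that without (-0.36 to 0.91). The 6 genes without a window, FBXO22, GADD45A, PHLDA3, RRM2B, TNFRSF10B and TP53INP1, are in neither set. Sequence outside the windows was not searched, so a gene without a site may still hold a p53 element elsewhere. The split therefore does not separate genes with an element from genes without one, and dependence on p53 was not tested.

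SMARCA4 fell with both siRNAs at both times. It measured 97.0 and 73.4 TPM with si-NT at 72 h, 21.7 and 19.02 TPM with siRNA 2 and 17.5 and 19.1 TPM with siRNA 3. At 144 h it measured 94.5 and 106.59 TPM with si-NT, 15.9 and 16.2 TPM with siRNA 2 and 11.4 and 17.4 TPM with siRNA 3. The log2 fold change at 72 h was -2.002 ± 0.19 (SE) with siRNA 2 and -2.15 ± 0.19 with siRNA 3 (limma, adjusted p = 0.00288 and 0.00185), and at 144 h it was -2.57 and -2.74 (adjusted p = 0.000173 and 0.000184). The difference between the siRNAs (siRNA 3 minus siRNA 2) was -0.14 at 72 h, with a 95% confidence interval of -0.57 to 0.28, and -0.17 at 144 h (-0.60 to 0.26). CDKN1A measured 34.1 and 45.0 TPM with siRNA 2 at 72 h, 73.1 and 71.0 TPM with si-NT, and 118.87 and 106.18 TPM with siRNA 3, a log2 difference between the siRNAs of 1.50 ± 0.15 (adjusted p = 0.00367), and the difference at 144 h was 1.43 ± 0.15 (adjusted p = 0.00716). The luminal prostate markers KLK3 and KRT8 were expressed in every library, at no less than 241 TPM and 303 TPM. Of markers of other cell types, KRT5, TP63, PTPRC, CD3E and COL1A2 stayed at or below 0.13 TPM. Others reached higher but stayed under 1 TPM: KRT14 (basal) 0.33, CD68 (leukocyte) 0.87, VWF (endothelium) 0.77 and PDGFRB (fibroblast) 0.89 TPM. COL1A1, a collagen gene of fibroblasts, was present at 3.10 to 9.11 TPM. ERCC spike-in transcripts held between 0.805% and 1.97% of the TPM, and 14706 to 15355 genes reached 1 TPM per library. The read depth behind the values is not given by a TPM table.

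Most of these 31 p53 targets, which were chosen with earlier results of these data known, measured higher with siRNA 3 than with siRNA 2. This held at both times on the TPM scale, but scaled to the ERCC spike-ins 11 of 31 were higher at 144 h. At 72 h the log2 difference (siRNA 3 minus siRNA 2) was positive for 28 of 31 genes, against 51.2% of all 16337 genes tested, and its median was 0.47, against 0.01 for all genes. At 144 h it was positive for 24 of 31 genes, against 33.3% of all genes, and its median was 0.22, against -0.10 for all genes. It was positive at both times for 24 genes, against 24.4% of all genes. The libraries of siRNA 3 lay entirely above those of siRNA 2 for 23 of the 31 genes at 72 h (20.4% of all genes), for 18 at 144 h (12.5%) and for 17 at both times (6.23%). The libraries of siRNA 2 lay entirely above those of siRNA 3 for none at 72 h (15.4% of all genes) and for 2 at 144 h (33.4%), EDA2R and SUSD6. These comparisons do not use the si-NT libraries, and the values at 72 h and at 144 h share no library. In a bulk sample, fewer cells that express a gene and less RNA per cell cannot be told apart.

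Few of these differences passed the test for single genes. With Benjamini-Hochberg adjustment over all genes tested, FDXR, AEN and SPATA18 were higher with siRNA 3 at 72 h, 3 of 31 against 0.122% of all genes called higher, and no p53 target was called lower (0.0184% of all genes). In a GENCODE annotation on GRCh37 these genes lie at chr17:72858619-72869156 (minus strand), chr15:89164568-89175512 (plus) and chr4:52917470-52963465 (plus). At 144 h DDB2 (chr11:47236016-47260768, plus), FDXR and AEN were higher, 3 of 31 against 0.178% of all genes, and again none was called lower (0.153%). At an unadjusted p under 0.05, 18 of the 31 were higher at 72 h (5.39% of all genes) and 15 at 144 h (3.41%), and none was lower at either time (2.94% and 9.9%). The 3 calls at 144 h fell to 1 or 0 when any of the 12 libraries was left out. None of the 3 calls at 72 h was kept without replicate 2 of siRNA 2 or without either library of siRNA 3 at that time. The call of SPATA18 at 72 h was lost in each of the 12 fits that left out a library, and in 18 of 21 alternatives in all.

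**Figure D1:**
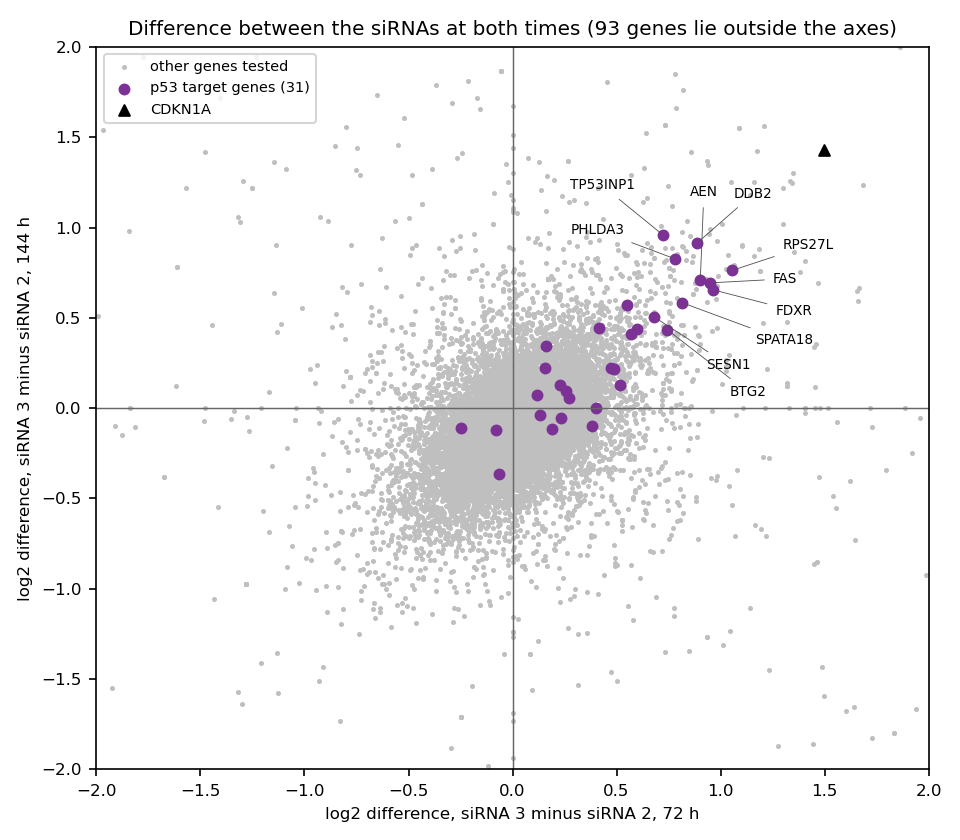
Log2 difference between the SMARCA4 siRNAs (siRNA 3 minus siRNA 2, on the log2(TPM + 1) scale) at 72 h on the horizontal axis and at 144 h on the vertical axis, for 31 p53 targets (purple), CDKN1A (black triangle) and the other genes tested (grey). The p53 targets spread from the origin into the upper right, with DDB2, TP53INP1, PHLDA3, RPS27L, AEN, FAS and FDXR farthest out, and 93 genes lie beyond the axes.

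Across the 31 p53 targets the differences at both times had a Pearson r of 0.87 and a Spearman rho of 0.87. Over all 16337 genes tested, which were not matched to the 31 in expression level, the values were 0.21 and 0.44. These are correlations across genes, which are not independent replicates, and the points share the libraries of each time. The largest differences at 72 h belonged to RPS27L (1.06), FDXR (0.96) and FAS (0.95), and the smallest absolute ones to MDM4 (-0.07) and GDF15 (-0.08). Whether the difference of a gene changed from 72 h to 144 h was not tested.

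**Figure D2:**
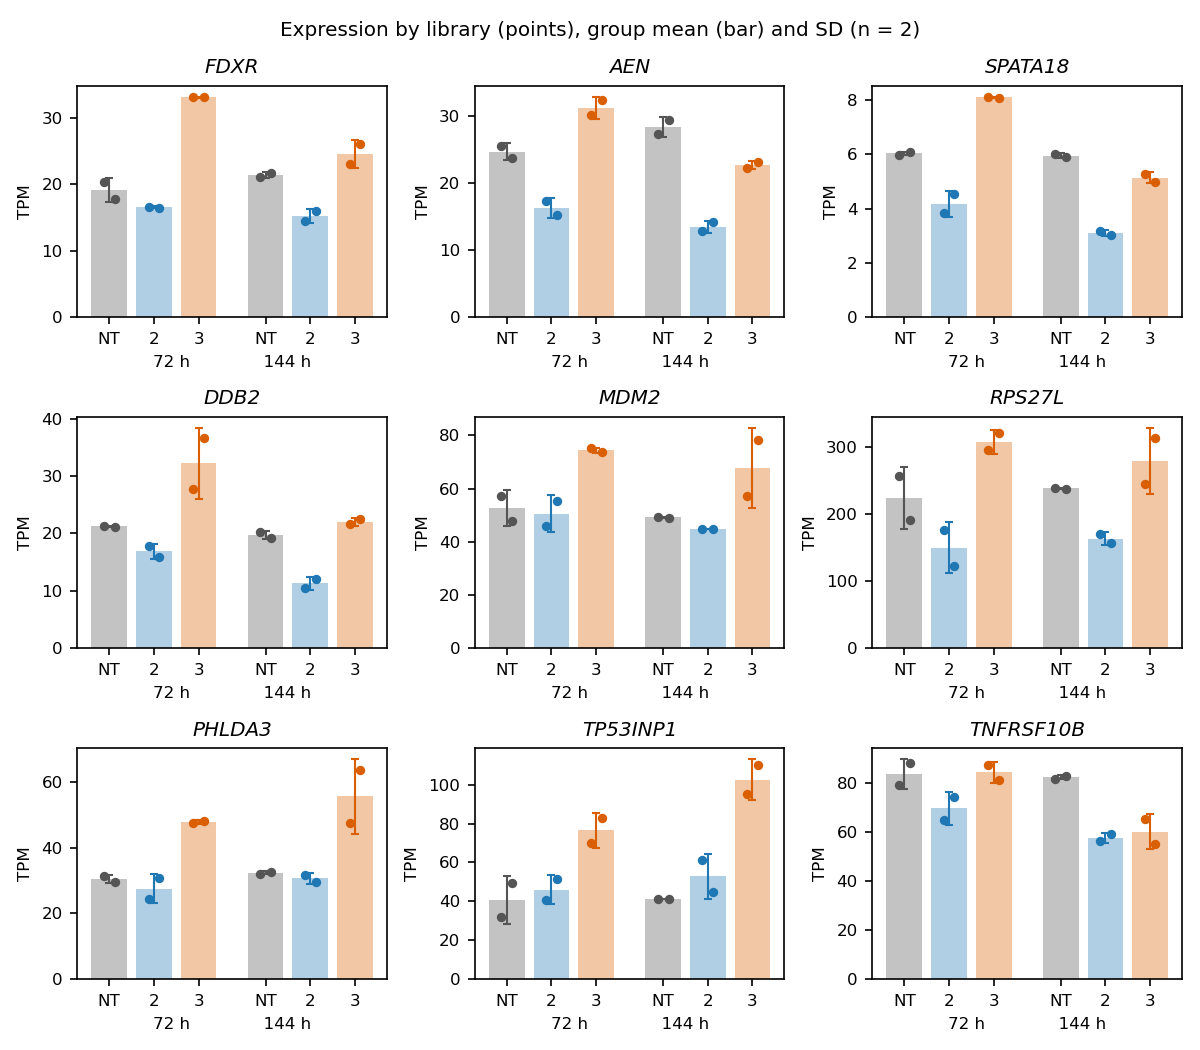
TPM per library for 9 p53 targets in 6 groups: si-NT (grey), siRNA 2 (blue) and siRNA 3 (orange) at 72 h (left) and 144 h (right). Points are libraries, bars group means and error bars the SD (n = 2), and in the 4 genes called between the siRNAs (FDXR, AEN, SPATA18 and DDB2) the orange points lie above the blue ones at both times.

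Each of the 4 redox and metabolic targets measured higher in both libraries of siRNA 3 than in those of siRNA 2, at both times. FDXR, the mitochondrial ferredoxin reductase that feeds electrons to steroid synthesis and iron-sulphur cluster formation, measured 20.4 and 17.9 TPM with si-NT at 72 h, 16.6 and 16.4 TPM with siRNA 2 and 33.2 and 33.1 TPM with siRNA 3. At 144 h the values were 21.1 and 21.8 TPM, 14.5 and 16.0 TPM, and 23.2 and 26.1 TPM. The groups did not overlap at either time, with siRNA 2 lowest and siRNA 3 highest. FDXR rose with siRNA 3 against si-NT at 72 h (log2 fold change 0.76 ± 0.11, adjusted p = 0.0187) and fell with siRNA 2 at 144 h (-0.47 ± 0.11, adjusted p = 0.0153). The difference between the siRNAs was 1.95-fold at 72 h (log2 0.96, 95% confidence interval 0.72 to 1.20, adjusted p = 0.00728) and 1.58-fold at 144 h (log2 0.66, 0.42 to 0.90, adjusted p = 0.0484). Scaled to the ERCC spike-ins, the log2 difference was 1.125 at 72 h (adjusted p = 0.656) and 0.21 at 144 h (adjusted p = 0.616), and neither was called.

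SESN1, a sestrin that restrains mTORC1 and limits oxidative stress, measured 22.9 and 26.3 TPM with si-NT, 16.8 and 20.1 TPM with siRNA 2 and 30.12 and 30.03 TPM with siRNA 3 at 72 h. The 144 h values were 29.1 and 25.4 TPM, 19.01 and 15.7 TPM, and 25 and 24.8 TPM. The siRNA 2 libraries were the lowest at both times, and SESN1 fell with siRNA 2 at 144 h (log2 fold change -0.63 ± 0.13, adjusted p = 0.0114). TIGAR, a fructose bisphosphatase that lowers glycolytic flux, measured 19.4 and 20.6 TPM with si-NT at 144 h, 14.5 and 14.0 TPM with siRNA 2 and 18.4 and 20.0 TPM with siRNA 3. It too fell with siRNA 2 at 144 h (-0.46 ± 0.13, adjusted p = 0.0328), and its log2 fold change with siRNA 3 was -0.06 ± 0.13.

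TP53I3, a quinone oxidoreductase, stood apart from the other 3 in that both siRNAs lay above si-NT. It measured 8.86 and 8.28 TPM with si-NT, 12.3 and 11.1 TPM with siRNA 2 and 14.4 and 22.9 TPM with siRNA 3 at 72 h, and 8.97 and 7.92 TPM, 10.6 and 13.0 TPM, and 16.2 and 16.4 TPM at 144 h. The 3 groups did not overlap at either time. The rise with siRNA 3 passed the test at 144 h (log2 fold change 0.88 ± 0.19, adjusted p = 0.0143), and with siRNA 2 the value was 0.44 ± 0.19 (adjusted p = 0.138). Scaled to the ERCC spike-ins, the value with siRNA 3 was 0.28 (adjusted p = 0.551) and no longer called.

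The 11 death receptor and apoptosis targets included genes with the difference between the siRNAs and genes with values on the same side of si-NT for both. AEN, a nuclease that degrades DNA during apoptosis, measured 25.6 and 23.8 TPM with si-NT, 17.4 and 15.2 TPM with siRNA 2 and 30.2 and 32.4 TPM with siRNA 3 at 72 h. At 144 h it measured 27.3 and 29.4 TPM, 12.9 and 14.2 TPM, and 22.3 and 23.2 TPM. No groups overlapped, with siRNA 2 lowest at both times, siRNA 3 above si-NT at 72 h and below it at 144 h. AEN fell with siRNA 2 at 72 h (log2 fold change -0.57 ± 0.11, adjusted p = 0.0359) and at 144 h (-1.02 ± 0.11, adjusted p = 0.000562). The difference between the siRNAs was 1.87-fold at 72 h (adjusted p = 0.0117) and 1.64-fold at 144 h (adjusted p = 0.0367). Scaled to the ERCC spike-ins, the log2 difference was 1.07 at 72 h (adjusted p = 0.856) and 0.27 at 144 h (adjusted p = 0.525), and neither was called.

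SPATA18, which acts in the removal of damaged mitochondrial proteins, measured 5.99 and 6.08 TPM with si-NT, 3.84 and 4.52 TPM with siRNA 2 and 8.11 and 8.09 TPM with siRNA 3 at 72 h, and 6.01 and 5.89 TPM, 3.17 and 3.02 TPM, and 5.28 and 4.99 TPM at 144 h. The groups were again separate at both times. The difference between the siRNAs at 72 h only just passed the test (log2 0.82 ± 0.12, adjusted p = 0.04996), and SPATA18 fell with siRNA 2 at 144 h (-0.76 ± 0.12, adjusted p = 0.0032). FAS, a death receptor, measured 3.71 and 3.11 TPM with si-NT, 1.87 and 1.36 TPM with siRNA 2 and 4.30 and 3.77 TPM with siRNA 3 at 72 h. Levels at 144 h were 3.33 and 4.51 TPM, 0.97 and 1.07 TPM, and 2.69 and 1.89 TPM. Both siRNAs were below si-NT at 144 h with no overlap, siRNA 2 further than siRNA 3. FAS had the largest fall of the list at 144 h with siRNA 2 (-1.27 ± 0.19, adjusted p = 0.00272) and was, of 34 called values of the 31 genes, the one that stayed called under every alternative scaling, filter, model and set of libraries in which it was refitted.

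TNFRSF10B, the TRAIL receptor DR5, and EDA2R, a TNF receptor family member that binds ectodysplasin A2, had small differences between the siRNAs at 144 h. TNFRSF10B measured 81.7 and 82.8 TPM with si-NT at 144 h, 56.1 and 59.1 TPM with siRNA 2 and 65.0 and 55.0 TPM with siRNA 3. The siRNA groups overlapped each other and lay below si-NT, and the gene fell with both (-0.51 ± 0.11 and -0.45 ± 0.11, adjusted p = 0.0129 and 0.0211). The log2 difference between the siRNAs was 0.06 with a 95% confidence interval of -0.19 to 0.30. EDA2R was low throughout and measured 2.13 and 1.32 TPM with si-NT at 144 h, 0.87 and 0.90 TPM with siRNA 2 and 0.77 and 0.71 TPM with siRNA 3. Its fall passed the test with siRNA 3 (-0.63 ± 0.19, adjusted p = 0.0425) and the value with siRNA 2 was -0.52 ± 0.19 (adjusted p = 0.0801). The call with siRNA 3 was lost in 15 of 21 alternatives, among them each fit that left out a library of 144 h. The interval of the difference between the siRNAs was -0.54 to 0.31.

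TP53INP1, a stress protein of autophagy and apoptosis, measured 32.1 and 49.3 TPM with si-NT, 40.6 and 51.5 TPM with siRNA 2 and 70.2 and 82.9 TPM with siRNA 3 at 72 h. At 144 h it measured 41.2 and 41.2 TPM, 61.0 and 44.7 TPM, and 95.04 and 110.1 TPM. The siRNA 3 libraries were the highest at both times and siRNA 2 overlapped si-NT at 72 h. Its rise with siRNA 3 at 144 h, 2.45-fold, was the largest of the list (log2 1.29 ± 0.22, adjusted p = 0.00509). PHLDA3, which blocks AKT at the membrane, measured 32.1 and 32.7 TPM with si-NT, 31.8 and 29.6 TPM with siRNA 2 and 47.6 and 63.7 TPM with siRNA 3 at 144 h, and rose with siRNA 3 (log2 fold change 0.75 ± 0.15, adjusted p = 0.00933). Scaled to the ERCC spike-ins, these log2 fold changes were 0.66 for TP53INP1 (adjusted p = 0.14) and 0.12 for PHLDA3 (adjusted p = 0.777), and neither was called.

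CYFIP2, an actin regulator of the WAVE complex, measured 22.5 and 21.7 TPM with si-NT, 24.6 and 25.5 TPM with siRNA 2 and 32.5 and 31.5 TPM with siRNA 3 at 144 h. The order was the same as for TP53I3, with no overlap, and the value with siRNA 3 passed the test (log2 fold change 0.52 ± 0.14, adjusted p = 0.03), although it was -0.10 when libraries were scaled to the ERCC spike-ins. SUSD6, which encodes a membrane protein, measured 10.9 and 9.69 TPM with si-NT, 16.0 and 16.6 TPM with siRNA 2 and 15.8 and 14.3 TPM with siRNA 3 at 144 h. Both siRNAs were above si-NT, and the siRNA 2 libraries were just above those of siRNA 3, with a log2 difference of -0.11 (95% confidence interval -0.57 to 0.35). BBC3, encoding the BH3-only protein PUMA, was called in no comparison, with log2 fold changes of -0.70 ± 0.26 and -0.32 ± 0.26 at 72 h for siRNA 2 and siRNA 3, and TRIAP1, a small inhibitor of apoptosis, was also not called, with -0.06 ± 0.17 and 0.43 ± 0.17. BAX, a pore-forming death effector outside the list, differed between the siRNAs by a log2 value of 0.69 at 72 h (adjusted p = 0.183) and by 0.41 at 144 h (adjusted p = 0.288). Neither passed the test. BAX is 1 of 26 other p53 targets tested, of which 17 had a positive difference at 72 h and 14 at 144 h, beside 51.2% and 33.3% of all genes.

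**Figure D3:**
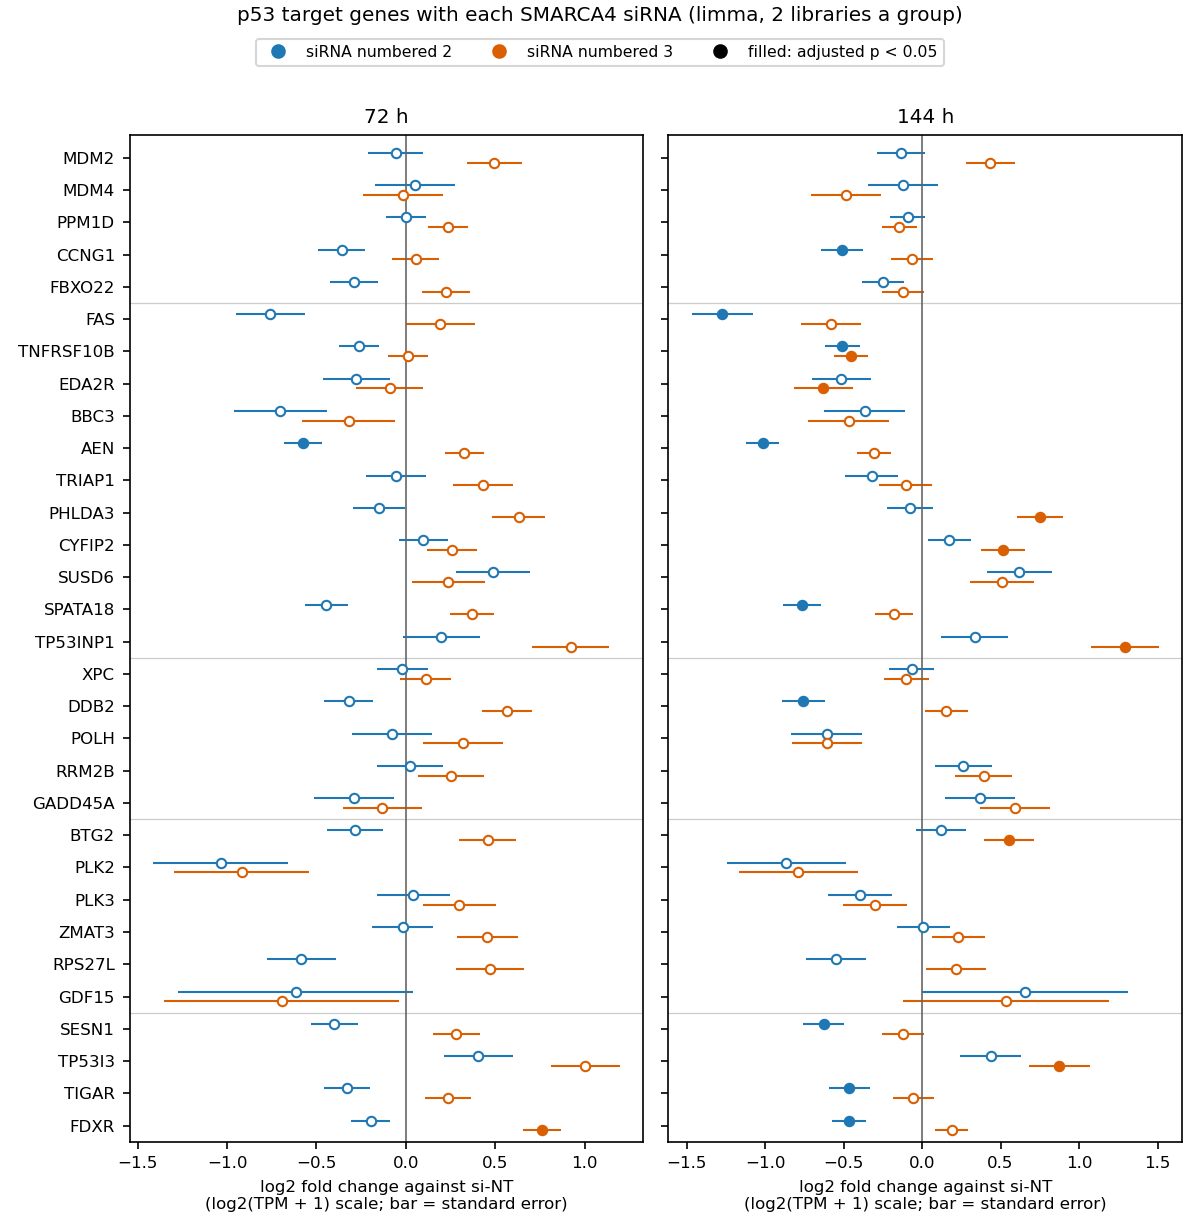
Log2 fold change against si-NT (log2(TPM + 1) scale) of each p53 target with siRNA 2 (blue) and siRNA 3 (orange) at 72 h (left) and 144 h (right), with the standard error as bars and filled points where the adjusted p was under 0.05. Genes are grouped by role, from feedback on p53 at the top to redox and metabolism at the bottom, and at 72 h the blue point lies left of the orange one in 28 of 31 genes.

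DDB2 was the DNA repair target that differed between the siRNAs. It encodes the ultraviolet damage sensor of nucleotide excision repair and measured 21.3 and 21.2 TPM with si-NT, 17.8 and 15.9 TPM with siRNA 2 and 27.8 and 36.6 TPM with siRNA 3 at 72 h. By 144 h the values were 20.3 and 19.2 TPM, 10.5 and 12.1 TPM, and 21.6 and 22.6 TPM. No groups overlapped, with siRNA 2 lowest and siRNA 3 highest at both times. The difference between the siRNAs was 1.88-fold at 144 h (log2 0.91, 95% confidence interval 0.60 to 1.22, adjusted p = 0.0368) and 1.85-fold at 72 h (adjusted p = 0.0674), and DDB2 fell with siRNA 2 at 144 h (-0.76 ± 0.14, adjusted p = 0.0059). Scaled to the ERCC spike-ins, its log2 difference between the siRNAs at 144 h was 0.47 (adjusted p = 0.334) and no longer called.

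The other 4 genes of repair and nucleotide supply gave no call for either siRNA alone. XPC, the partner of DDB2 in damage recognition, ranged only from 15.5 to 20.4 TPM over the 12 libraries, and its log2 differences between the siRNAs were 0.13 (95% confidence interval -0.19 to 0.45) and -0.04 (-0.36 to 0.28). RRM2B, a p53-controlled subunit of ribonucleotide reductase, had log2 differences of 0.23 and 0.13. GADD45A, a damage-inducible growth arrest gene, had 0.16 and 0.22. POLH, a polymerase that copies past ultraviolet lesions, measured 9.44 and 7.02 TPM with si-NT at 144 h, 5.23 and 4.78 TPM with siRNA 2 and 6.20 and 4.02 TPM with siRNA 3, and both log2 fold changes were -0.61 ± 0.22. The siRNA groups overlapped each other and lay below si-NT.

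In the growth arrest group, BTG2, RPS27L and ZMAT3 measured higher in both libraries of siRNA 3 than in those of siRNA 2 at both times. BTG2, an antiproliferative cofactor of mRNA deadenylation, measured 31.1 and 25.2 TPM with si-NT, 21.6 and 24.0 TPM with siRNA 2 and 41.2 and 36.6 TPM with siRNA 3 at 72 h. At 144 h it measured 34.7 and 33.7 TPM, 43.5 and 31.9 TPM, and 47.4 and 54.3 TPM. The siRNA 3 libraries were highest at both times, and the value at 144 h passed the test (log2 fold change 0.56 ± 0.16, adjusted p = 0.0373), although it was -0.07 when scaled to the ERCC spike-ins. RPS27L, a ribosomal protein-like gene that binds MDM2, measured 257 and 191 TPM with si-NT, 177 and 123 TPM with siRNA 2 and 295 and 320.45 TPM with siRNA 3 at 72 h, and 239 and 238 TPM, 169.96 and 156 TPM, and 245 and 314 TPM at 144 h. No groups overlapped, siRNA 2 was lowest and siRNA 3 highest. No comparison of RPS27L passed the test, the nearest being siRNA 2 against si-NT at 144 h (-0.55 ± 0.19, adjusted p = 0.0717), and its reads may be shared with the similar gene RPS27.

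PLK2, a stress-responsive polo-like kinase, measured 13.8 and 14.8 TPM with si-NT at 72 h, 5.47 and 7.55 TPM with siRNA 2 and 7.16 and 6.97 TPM with siRNA 3. At 144 h the si-NT libraries themselves measured 22.7 and 8.09 TPM, beside 6.32 and 7.85 TPM with siRNA 2 and 5.89 and 9.43 TPM with siRNA 3. The groups were separate from si-NT at 72 h but siRNA 3 overlapped it at 144 h, and none of the 4 log2 fold changes (-1.04 and -0.92 at 72 h, -0.86 and -0.79 at 144 h, SE 0.38) passed the test. GDF15, a secreted stress cytokine, varied widely between libraries of 1 group, with 373 and 573 TPM for si-NT, 162 and 560.21 TPM for siRNA 2 and 416 and 195 TPM for siRNA 3 at 72 h, and 365 and 105 TPM, 280.26 and 341 TPM, and 289.96 and 279 TPM at 144 h. The standard error of its log2 fold changes was 0.66. ZMAT3, an RNA-binding regulator of splicing, measured 5.34 and 6.84 TPM with siRNA 2 and 8.61 and 8.96 TPM with siRNA 3 at 72 h, and had log2 differences between the siRNAs of 0.47 ± 0.17 and 0.22 ± 0.17, and PLK3, a further polo-like kinase, 0.26 ± 0.20 and 0.10 ± 0.20.

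Of the 5 genes that feed back on p53, MDM2, CCNG1 and FBXO22 measured higher in both libraries of siRNA 3 than in those of siRNA 2 at both times. MDM2, the ubiquitin ligase of p53, measured 57.4 and 47.9 TPM with si-NT, 45.7 and 55.5 TPM with siRNA 2 and 75.1 and 73.6 TPM with siRNA 3 at 72 h. The 144 h values were 49.3 and 49.1 TPM, 44.7 and 44.8 TPM, and 57.1 and 78.4 TPM. The siRNA 3 libraries were the highest at both times, while siRNA 2 overlapped si-NT at 72 h. The log2 difference was 0.55 at 72 h (95% confidence interval 0.21 to 0.90, adjusted p = 0.354) and 0.57 at 144 h (0.22 to 0.92, adjusted p = 0.186), so neither passed the test over all genes. CCNG1, cyclin G1, which recruits a phosphatase to MDM2, measured 135 and 128 TPM with si-NT, 99.3 and 85.5 TPM with siRNA 2 and 123 and 129 TPM with siRNA 3 at 144 h, and fell with siRNA 2 (-0.51 ± 0.13, adjusted p = 0.0251).

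MDM4, the relative of MDM2 that masks p53, had log2 differences between the siRNAs of -0.07 (95% confidence interval -0.57 to 0.44) and -0.36 (-0.87 to 0.14). PPM1D, the phosphatase WIP1 that switches off damage signalling, kept to between 8 and 10.3 TPM over the 12 libraries, with differences of 0.23 ± 0.11 and -0.05 ± 0.11. FBXO22, part of a ubiquitin ligase, measured 42.2 and 37 TPM with siRNA 2 and 58.3 and 55.5 TPM with siRNA 3 at 72 h, with differences of 0.52 ± 0.13 at 72 h and 0.13 ± 0.13 at 144 h. None of the 3 was called in any comparison.

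Against si-NT at 72 h, siRNA 2 gave 1 called gene among the 31, AEN, which fell, beside 0.63% of all genes called lower and 1.57% in either direction. At an unadjusted p under 0.05, 11 were lower, against 6.11% of all genes, and both libraries lay below both si-NT libraries for 15 of 31, against 15%. The median log2 fold change of the 31 genes was -0.26, against 0.05 for all genes. With siRNA 3, FDXR rose and no other was called, beside 0.428% of all genes called higher and 0.655% in either direction. At an unadjusted p under 0.05, 12 were higher, against 9.09% of all genes, and both libraries lay above both si-NT libraries for 20 of 31, against 29.6%. The median was 0.26, against 0.06 for all genes. Both comparisons use the same si-NT libraries. The fall of AEN was called in 1 of the 12 fits that left out a library, that without replicate 1 of siRNA 2 at 72 h. The call of FDXR was lost without replicate 2 of si-NT or without either library of siRNA 3 at that time.

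At 144 h siRNA 2 gave 9 falls and no rise among the 31 genes, against 7.67% of all genes called lower, 13.6% called higher and 21.3% in either direction. They were SESN1, TIGAR, FAS, TNFRSF10B, DDB2, FDXR, CCNG1, AEN and SPATA18, which spread over 4 of the 5 roles. With siRNA 3 at 144 h, 5 of 31 rose (TP53I3, BTG2, TP53INP1, PHLDA3 and CYFIP2) and 2 fell (TNFRSF10B and EDA2R), beside 9.83% and 10.4% of all genes. Scaled to the ERCC spike-ins, none of the 31 was called higher with siRNA 3 and 4 were called lower, and with siRNA 2 only the fall of FAS was called. Both siRNA 2 libraries lay below si-NT for 19 of 31 (27.6% of all genes), while both siRNA 3 libraries lay above si-NT for 13 (30.8%) and below it for 11 (34.1%). The medians at 144 h were -0.32 for siRNA 2 and -0.07 for siRNA 3, against 0.07 and -0.02 for all genes.

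The calls at 144 h depended on single libraries. Of the 9 falls with siRNA 2, 4 were kept without replicate 1 of si-NT at 144 h and 5 without its replicate 2, while 5 were kept without replicate 1 of siRNA 2 at that time and 6 without its replicate 2. Of the 7 calls with siRNA 3, 1 (TP53INP1) was kept without either si-NT library of 144 h or without replicate 2 of siRNA 3, and 4 without replicate 1 of siRNA 3.

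**Figure D4:**
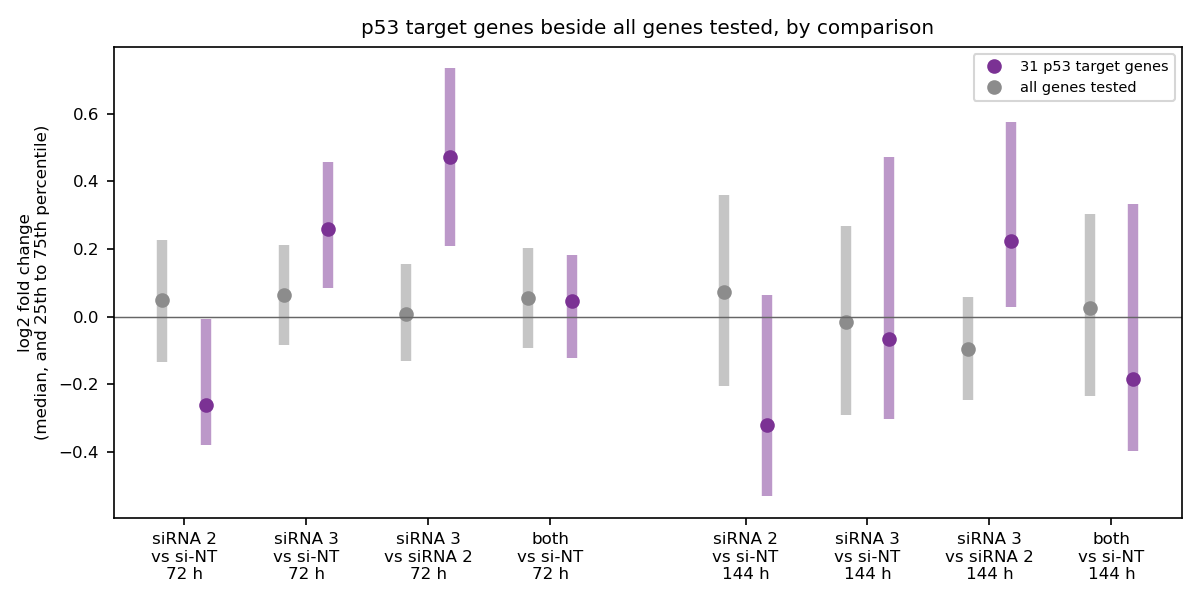
Median (point) and 25th to 75th percentile (bar) of the log2 fold change of the 31 p53 targets (purple) and of all 16337 genes tested (grey) in 8 comparisons, with 72 h on the left and 144 h on the right. The p53 targets stand highest above all genes in the comparison of siRNA 3 with siRNA 2 (medians 0.47 and 0.22), and close to all genes when the siRNAs are pooled at 72 h (0.05 and 0.06).

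With the siRNAs pooled at 72 h, none of the 31 genes was called in limma, beside 2.08% of all genes. At an unadjusted p under 0.05 there were 5 (TP53I3, FDXR and TP53INP1 higher, PLK2 and BBC3 lower), beside 16.5% of all genes. FDXR, for instance, had a combined log2 fold change of 0.28 ± 0.09 although its difference between the siRNAs was 0.96. At 144 h 10 of 31 were called, a share of 32.3% beside 27.2% of all genes, with 15% called higher and 12.1% lower. TP53I3 (0.66 ± 0.17), TP53INP1 (0.81 ± 0.19) and SUSD6 (0.56 ± 0.18) rose. SESN1, FAS, TNFRSF10B, AEN, SPATA18, POLH and EDA2R fell, by between 0.38 for SESN1 and 0.93 for FAS on the log2 scale. The count was 3 when the 4 libraries of both siRNAs were treated as replicates of 1 group, so that the difference between siRNAs entered the spread. Of the 10 genes, 2 were still called without either si-NT library of 144 h, 5 without replicate 2 of siRNA 2 and 6 without replicate 2 of siRNA 3 at that time. Scaled to the ERCC spike-ins, 2 genes were called, both lower.

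None of the 31 was called between si-NT at 144 h and at 72 h in limma and none had an unadjusted p under 0.05, beside 0.0245% and 4.41% of all genes, and the median log2 change was 0.05. The change of the combined siRNA effect from 72 h to 144 h was also called for none, with 8 at an unadjusted p under 0.05, 7 of them towards lower values at 144 h (FAS, TNFRSF10B, DDB2, FDXR, AEN, SPATA18 and POLH) and GADD45A towards higher, beside 0.0796% called and 13.6% at an unadjusted p under 0.05 among all genes.

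For the wider pathway, a list of 30 other p53 targets that includes CDKN1A and BAX had 26 tested genes. CDKN1A alone was called between the siRNAs at each time, 1 of 26 beside 0.141% of all genes at 72 h and 0.331% at 144 h. The medians of the 26 were 0.02 and 0.01, against 0.01 and -0.10 for all genes and 0.47 and 0.22 for the 31 genes. The difference was positive for 17 of the 26 at 72 h (51.2% of all genes) and for 14 at 144 h (33.3%). Among the 31 genes it was positive for 28 and 24. For both siRNAs together at 144 h, 9 of these 26 rose and 2 fell, beside 15% and 12.1% of all genes. THBS1, a matrix glycoprotein, rose most (log2 fold change 2.33 ± 0.17), SERTAD1, a cell cycle regulator, rose by 1.03 ± 0.12 and CMBL, a hydrolase, by 0.55 ± 0.10, while PMAIP1, the BH3-only protein NOXA, fell (-0.96 ± 0.18). Among regulators of p53 at 144 h with both siRNAs together, RPL5, a ribosomal protein that inhibits MDM2, fell by 0.44 and CHEK1, a checkpoint kinase, by 1.00 on the log2 scale, while HIPK2, a kinase of p53, rose by 0.69. None of these 3 was called between the siRNAs. The 12 proliferation genes, which p53 activation is known to lower, gave no call between the siRNAs, and 11 of 12 fell at 144 h with both together (12.1% of all genes), by 0.92 for CCNB1, 1.13 for CENPF, 0.98 for MKI67 and 1.01 for TOP2A.

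Directions at 144 h depended on the scaling, and the ERCC share itself varied between libraries of 1 group. At 144 h it was 0.805% and 1.336% with si-NT, 1.302% and 1.044% with siRNA 2, and 1.325% and 1.966% with siRNA 3. Which scaling is the better one was not tested. When libraries were scaled to the ERCC spike-ins in place of the TPM total, the median of all genes for siRNA 3 against siRNA 2 moved to 0.16 at 72 h and to -0.49 at 144 h. The log2 difference was then positive for 30 of the 31 p53 targets at 72 h but for 11 at 144 h. Relative to the median of all genes the list stood 0.47 higher at 72 h on both scales, and 0.32 (TPM) or 0.31 (ERCC) higher at 144 h, with 28 of 31 genes above that median at each time under ERCC scaling. At 72 h the count above it was also 28 on the TPM scale, and at 144 h it was 26. Of the 34 called values, 2 changed sign as they stand (BTG2 and CYFIP2 with siRNA 3 at 144 h) and none relative to the median of all genes.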

How the data were processed

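RNA was extracted from LNCaP cells, ERCC spike-ins were added to a fixed RNA mass, and stranded mRNA libraries were sequenced. According to the study's methods and the labels, the authors trimmed reads with Trim Galore 0.11.2 and checked them with FastQC, mapped them to hg19 (GRCh37) with STAR 2.4.0j, counted them into GENCODE genes with featureCounts, normalised read counts with the ERCC spike-ins, and deposited TPM per gene and library, to 2 decimals, with the spike-ins included in the total of each library. Since each TPM column, spike-ins included, has the same total, the values as deposited carry no scaling to the spike-ins, and that scaling was tried as an alternative. Read counts are not used here and depth is unknown, so no counting interval was made. The table has 63660 rows, of which 92 are spike-ins, and no pair of libraries was identical.

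From the TPM values, log2(TPM + 1) was fitted in limma 3.58.1 (R 4.3.3) with 6 groups (siRNA and time) over all 12 libraries, for the 16337 genes that reached 1 TPM in 2 or more libraries, with a mean-variance trend and Benjamini-Hochberg adjustment over all genes. Called means an adjusted p under 0.05 with no limit on fold change. Fold changes on this scale understate the change of low genes. The fit had 6 residual and 3.39 prior degrees of freedom, and the method was tested on simulated data. Figures were drawn with matplotlib 3.10.9. RefSeq promoter windows are from GRCh38.p14, and their coordinates were not mixed with the GRCh37 of the table.

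The 31 genes and all gene lists were chosen with earlier results of these data known. Every one of the 31 is described. CDKN1A and SMARCA4 are always given, and of each other list up to 4 genes with the smallest adjusted p among those called for both siRNAs together at 144 h. BAX, which was not called there, is given outside this rule. Some genes of the lists, and counts that need them, are not reported here. Alternatives were another pseudocount, scaling, filter, variance model, set of libraries, block or threshold, and leaving out each library. Replicate numbers were not used to pair libraries in the main fit. Deviations of same-numbered libraries correlated at -0.23 to 0.30 over 15 pairs of groups, 2 of them over 0.1. This does not settle whether libraries of the same number were handled together.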

Additional observations from a re-analysis of the deposited data

Results flagged for a closer look

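The siRNAs differed by an adjusted p under 0.05 (limma) for FDXR (log2 difference, siRNA 3 minus siRNA 2, of 0.96), AEN (0.90) and SPATA18 (0.82) at 72 h, and for DDB2 (0.91), FDXR (0.66) and AEN (0.71) at 144 h.

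The values of 3 genes stood far from the other libraries of the same time that received a SMARCA4 siRNA. GADD45A was at 19.42 TPM in replicate 1 of siRNA 2 at 72 h, where the other 3 libraries ranged from 23.55 to 24.02 TPM. CYFIP2 was at 23.99 TPM in the same library, where the others ranged from 30.61 to 31.91 TPM. GDF15 was at 341.24 TPM in replicate 2 of siRNA 2 at 144 h, where the highest of the others was 289.96 TPM. These are 3 of 62 groups examined. The chance rate of about 1 in 20 is for libraries of a single treatment. Each group here mixed libraries of both SMARCA4 siRNAs, so that rate does not apply.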

How the results depend on the processing

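The numbers of p53 targets called are given in the order siRNA 2 against si-NT, siRNA 3 against si-NT, siRNA 3 against siRNA 2, and both siRNAs against si-NT, and were 1, 1, 3 and 0 at 72 h and 9, 7, 3 and 10 at 144 h. Scaled to the ERCC spike-ins they were 0, 0, 0 and 0, and 1, 4, 0 and 2, all of them lower, and the log2 fold changes of BTG2 (-0.068) and CYFIP2 (-0.099) with siRNA 3 at 144 h changed sign. Median-of-ratios and quantile scaling each gave 2 for siRNA 2 at 72 h and 5 between the siRNAs at 144 h. Without a filter there were 4 for siRNA 3 and 1 between the siRNAs at 144 h, and with a mean of at least 5 TPM there were 2 for siRNA 3 at 72 h. Fits of 1 time point alone gave 0 for each of the first 3 comparisons at 72 h and 0 between the siRNAs at 144 h, and a fit without the variance trend gave 0 for siRNA 2 at 72 h and 0 between the siRNAs at 144 h. With the si-NT libraries of both times combined there were 5, 5 and 3 at 72 h for siRNA 2, siRNA 3 and both. Both siRNAs in 1 group gave 3 at 144 h. A limit of 1.5 on the log2 fold change left 0 everywhere, and an adjusted p under 0.01 with a linear fold change over 1.5 left 0, 0 and 1 for the first 3 at 72 h and 4, 2, 0 and 2 at 144 h. A pseudocount of 0.1 kept each count within 1.5 times. The cause of these moves was not tested.

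Leaving out 1 library at a time gave 0 to 1, 0 to 1, 0 to 2 and 0 to 1 at 72 h, and 4 to 11, 1 to 7, 0 to 1 and 2 to 12 at 144 h. In these fits the lone library of its group is assumed to vary like the other groups. With a replicate block there were 0 for siRNA 2 at 72 h and 0 between the siRNAs at 144 h, and otherwise 1, 2 and 0 at 72 h and 9, 6 and 7 at 144 h. The labels do not say whether libraries of the same replicate number were handled together, so the block may not be a paired design. Depth is unknown, and levels near 1 TPM, as for EDA2R and FAS, are the least precise.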
